A study of Homo sapiens with 24 samples.

Results

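A set of 10 genes that encode secreted Wnt modulators and Wnt feedback factors was followed here in 2 metastatic clear cell renal cell carcinoma (ccRCC) cell lines. They were taken by name, SFRP1, SFRP2, DKK1, DKK3, WNT5A, WNT7B, AXIN2, LGR4, LGR5 and APCDD1L, and all 10 were among the 26475 genes counted in each of 24 RNA-seq libraries. The choice was made with earlier results in view, namely the strong fall of SFRP2 in OS-LM1 cells with shPAX8, so for these 10 genes every value of shPAX8 against sgNTC18 in OS-LM1 cells is given as a description, with no test.

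The study asked what the renal lineage transcription factor PAX8 controls in ccRCC. The lines were 786-M1A, a metastatic derivative of 786-O, and OS-LM1, a metastatic derivative of OS-RC2, and both are VHL mutant and carry a luciferase reporter. Each line was profiled with 4 replicates of each of 3 constructs, giving 6 groups of 4. The constructs shPAX8-1 and shPAX8-2 are inducible RNAi hairpins against PAX8, and sgNTC18 is a non-targeting guide RNA. Thus sgNTC18 differs from the shPAX8 constructs in kind as well as in target, and the sgNTC18 libraries may come from another experiment than the shPAX8 libraries. All cells were grown in RPMI medium with serum, and the length of hairpin induction before RNA was taken is not given in the sources used here. A difference between shPAX8 and sgNTC18 libraries therefore cannot be told apart from one of construct type or experiment, whereas shPAX8-1 against shPAX8-2 stays within the hairpin libraries. Nothing states that the replicates were separate cultures, so p-values measure the spread between these libraries, which may be technical.

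Wnt ligands are secreted lipoproteins that bind Frizzled receptors and LRP5 or LRP6 co-receptors. In the canonical branch this stabilises β-catenin, which activates TCF/LEF target genes, among them feedback inhibitors, and other ligands such as WNT5A act mainly through β-catenin-independent routes. Secreted frizzled-related proteins (SFRPs) bind Wnt ligands outside the cell, and some Dickkopf proteins (DKKs), such as DKK1, bind the LRP co-receptors. In the developing kidney Wnt signals drive ureteric bud branching and the formation of nephron epithelium, the tissue in which PAX8 also acts.

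The hairpins are shown first because each result below is a comparison of them with each other or with sgNTC18. In the guides, the capitals mark the seed, bases 2 to 8 from the 5′ end, which is the part that selects partially matched transcripts.
shPAX8-1 guide: tGTGAGTCaatgcttagtcggc
shPAX8-2 guide: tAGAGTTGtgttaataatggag
The matching stretches of PAX8 pair with bases 2 to 22 of the guides and lie on the minus strand of chromosome 2 (GRCh38).
shPAX8-1 site: gccgactaagcattgactcac
shPAX8-2 site: ctccattattaacacaactct
The first, at chr2:113241691-113241711, is coding sequence in exon 7 of the 12 exons of the GENCODE canonical transcript, and the second, at chr2:113218123-113218143, is in the 3′ untranslated region (UTR) in exon 12. A match to the seed of shPAX8-1 was present in the 3′ UTR of 2 of the 10 Wnt genes, with 2 matches in WNT5A and 1 in APCDD1L, whereas 6.79% of 19539 protein-coding genes held one. None of the 10 held a match to the seed of shPAX8-2, which 10.2% of the genes held. A seed match is a description of sequence and was not tested as a site.

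PAX8 itself was measured at 292, 393, 360 and 319 CPM (the counts of a gene scaled to a common library size, set by the trimmed mean of M-values) in the 4 sgNTC18 libraries of 786-M1A cells, and at 14.8 to 22.9 CPM with shPAX8-1 and 40.0 to 45.5 CPM with shPAX8-2. In OS-LM1 cells it was 245 to 279 CPM with sgNTC18, 59.8 to 89.2 CPM with shPAX8-1 and 63.8 to 97 CPM with shPAX8-2. No shPAX8 library overlapped the sgNTC18 libraries of its line. The fall was 11.9-fold in 786-M1A cells (edgeR adjusted p = 5.6e-12) and 3.33-fold in OS-LM1 cells (edgeR adjusted p = 9.4e-12), so the targeted gene follows the labels. Here and below, a log2 fold change or difference is followed by ± its standard error, and a CPM value is that of 1 library unless called a mean.

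The libraries held between 11634419 and 52059375 counts. Of the 12 renal and ccRCC marker genes, 9 to 12 had a mean of at least 1 CPM in each group, with CA9 and NDUFA4L2 below 1 CPM throughout 786-M1A. The leukocyte markers PTPRC, CD3E and CD79A and all 4 endothelial markers had means below 1 CPM in every group. The remaining leukocyte marker, CD14, had means of 0.261, 1.76 and 1.08 CPM with sgNTC18, shPAX8-1 and shPAX8-2 in 786-M1A and of 0.362, 3.27 and 1.93 CPM in OS-LM1, and the 4 leukocyte markers summed to 0.329 to 4.07 CPM over all libraries. The 5 fibroblast markers summed to 14.9 to 20.1 CPM with sgNTC18 and 91.7 to 207 CPM with shPAX8 in OS-LM1 cells. In 786-M1A cells the same sum was 535 to 727 CPM with sgNTC18, 203 to 425 CPM with shPAX8-1 and 671 to 891 CPM with shPAX8-2, while COL1A2 and DCN had means below 1 CPM in all 6 groups. Each sum was mostly 1 gene, COL1A1 in OS-LM1 (means of 16.2, 102 and 166 CPM with sgNTC18, shPAX8-1 and shPAX8-2) and PDGFRB in 786-M1A (606, 300 and 782 CPM). In 786-M1A cells COL1A1 (means of 3.51, 6.62 and 9.43 CPM) and LUM (1.01, 6.12 and 5.59 CPM) were higher with both hairpins. The part of these genes in the results was not tested. Fold changes also followed GC content across genes, with rank correlations from -0.105 to -0.559 over the fold changes against sgNTC18 and between the constructs, the last in 786-M1A cells between shPAX8-1 and shPAX8-2.

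Of the 10 genes, 6 (DKK3, WNT5A, WNT7B, AXIN2, LGR4 and APCDD1L) had enough counts to be tested in 786-M1A cells, and SFRP2 was added to them in OS-LM1 cells. SFRP2 passed only through the OS-LM1 libraries, where each shPAX8 library held 40 to 150 counts and the sgNTC18 libraries far more. SFRP1 had 0 counts in all 24 libraries, which allows up to 0.249 CPM in the shallowest library at a limit of 3 counts. DKK1, which encodes the archetypal Dickkopf inhibitor, had 61 counts over all libraries and at most 16 in one. Of these, 40 fell in OS-LM1 with sgNTC18, 16 in OS-LM1 with shPAX8-1, 4 in OS-LM1 with shPAX8-2 and 1 in 786-M1A. As a description, OS-LM1 levels of DKK1 were 0.176 to 0.445 CPM with sgNTC18, 0.0486 to 0.317 with shPAX8-1 and 0 to 0.07 with shPAX8-2. LGR5, the stem cell R-spondin receptor, had 6 counts in all and at most 2 in one. SFRP1, DKK1 and LGR5 thus had too few counts to be tested between groups at this depth, and these limits cover counting error only.

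**Figure D1:**
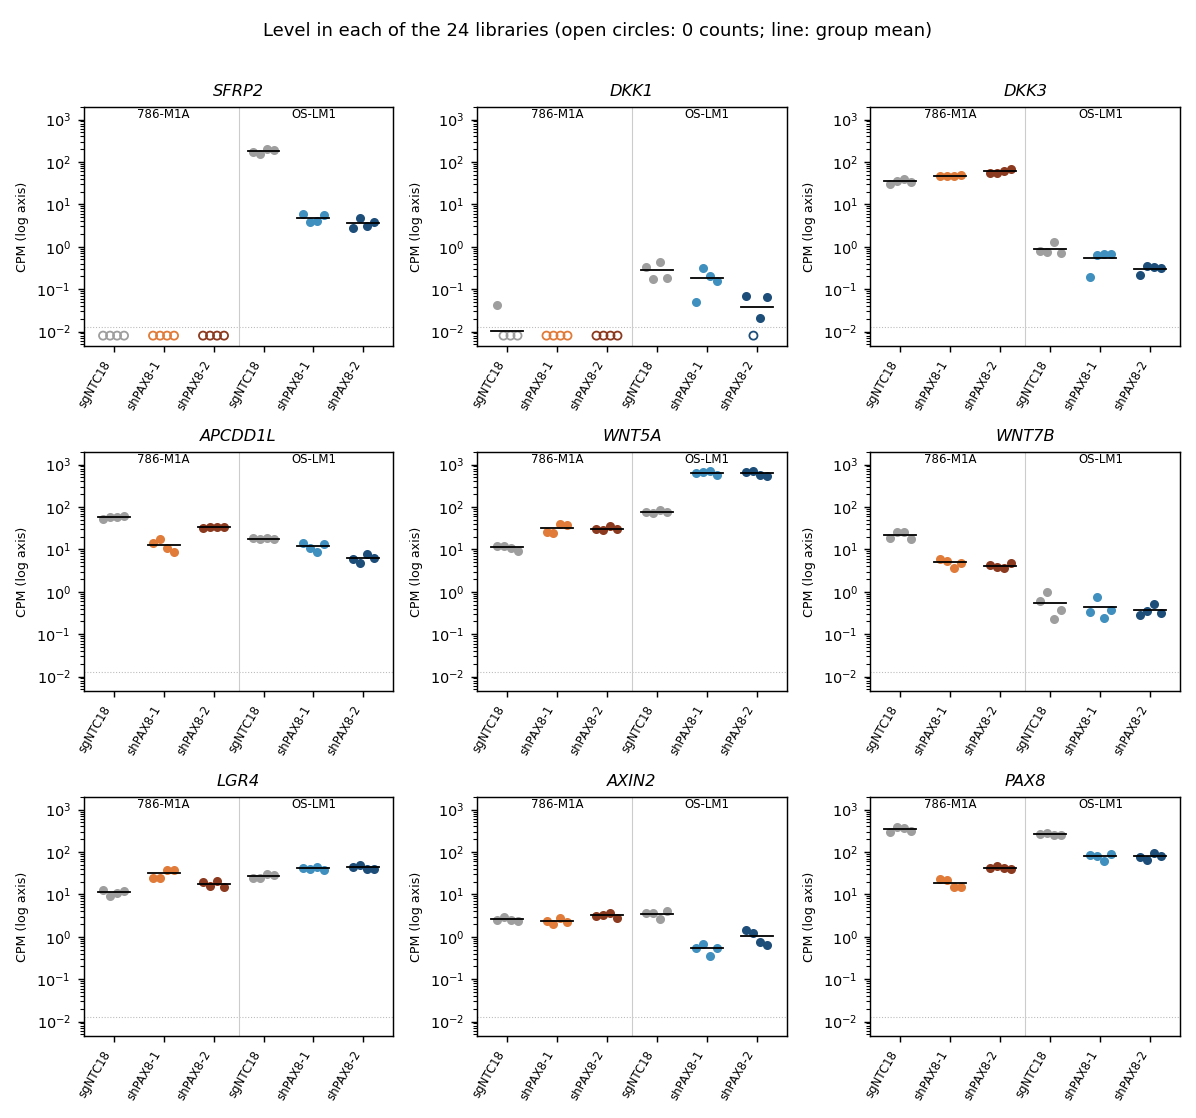
Level of 8 of the Wnt genes and of PAX8 in each library. The vertical axis is CPM on a log scale, each point is 1 of the 4 libraries of a group, open circles below the dotted line are libraries with 0 counts and the black line is the group mean. SFRP2 is at 0 in all 12 libraries of 786-M1A and between 157 and 204 CPM in OS-LM1 with sgNTC18, and WNT5A is highest in OS-LM1 with shPAX8, between 532 and 711 CPM.

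Among the secreted inhibitors, SFRP2 (chromosome 4, 153780591 to 153789083, GRCh38) was the member that differed most between samples. In OS-LM1 cells its level was 176, 157, 204 and 192 CPM with sgNTC18. It was 5.83, 3.92, 4.01 and 5.69 CPM with shPAX8-1, from 74 to 150 counts, and 2.80, 4.78, 3.05 and 3.87 CPM with shPAX8-2, from 40 to 146 counts. The sgNTC18 libraries thus lay apart from all 8 shPAX8 libraries, and those of the 2 hairpins overlapped. As a description, SFRP2 was lower by a log2 difference of -5.25 with shPAX8-1 (± 0.16, 38.0-fold) and of -5.66 with shPAX8-2 (± 0.16, 50.7-fold). Over both hairpins SFRP2 had rank 35 of 15049 genes from the lowest log2 fold change. No library of 786-M1A held a count of SFRP2, whatever the construct. Against 3 counts over these 12 libraries, or 0.0128 CPM, the mean of OS-LM1 was at least 14200-fold higher with sgNTC18, and at least 380-fold and 283-fold higher with shPAX8-1 and shPAX8-2. SFRP2 was still detected in every OS-LM1 library with shPAX8. In bulk RNA, fewer cells with a transcript and less of it per cell cannot be told apart. The difference between the hairpins, which the choice of genes did not use, was a log2 fold change of 0.42 (± 0.17) and did not pass the threshold (edgeR adjusted p = 0.073). It passed with DESeq2 (adjusted p = 0.045) and without replicate 2 or 3 of shPAX8-1 or replicate 2 of shPAX8-2 (adjusted p = 0.013 to 0.038).

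The other secreted frizzled-related genes had other patterns. SFRP4 in OS-LM1 cells was 2.06, 2.23, 2.87 and 2.14 CPM with sgNTC18, 20.5 to 26.6 CPM with shPAX8-1 and 23.3 to 31.0 CPM with shPAX8-2, so that here the shPAX8 libraries were the high ones. FRZB, which encodes SFRP3, had 4 counts in all with sgNTC18 in 786-M1A cells and between 42 and 66 counts per library with shPAX8-1 and 11 and 33 with shPAX8-2. In OS-LM1 cells FRZB was at 0.117 to 0.181 CPM with sgNTC18 and at 0.179 to 0.583 CPM with shPAX8. SFRP5 was at or below 0.111 CPM in all libraries. In TPM, which the authors deposited and which corrects for length, the median of SFRP2 in OS-LM1 cells was 164 with sgNTC18, 4.34 with shPAX8-1 and 2.89 with shPAX8-2, and that of SFRP4 was 1.30, 14.8 and 15.1, so SFRP4 exceeded SFRP2 in the shPAX8 libraries only. The whole family is given, and it was taken up with the fall of SFRP2 in these libraries known.

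**Figure D2:**
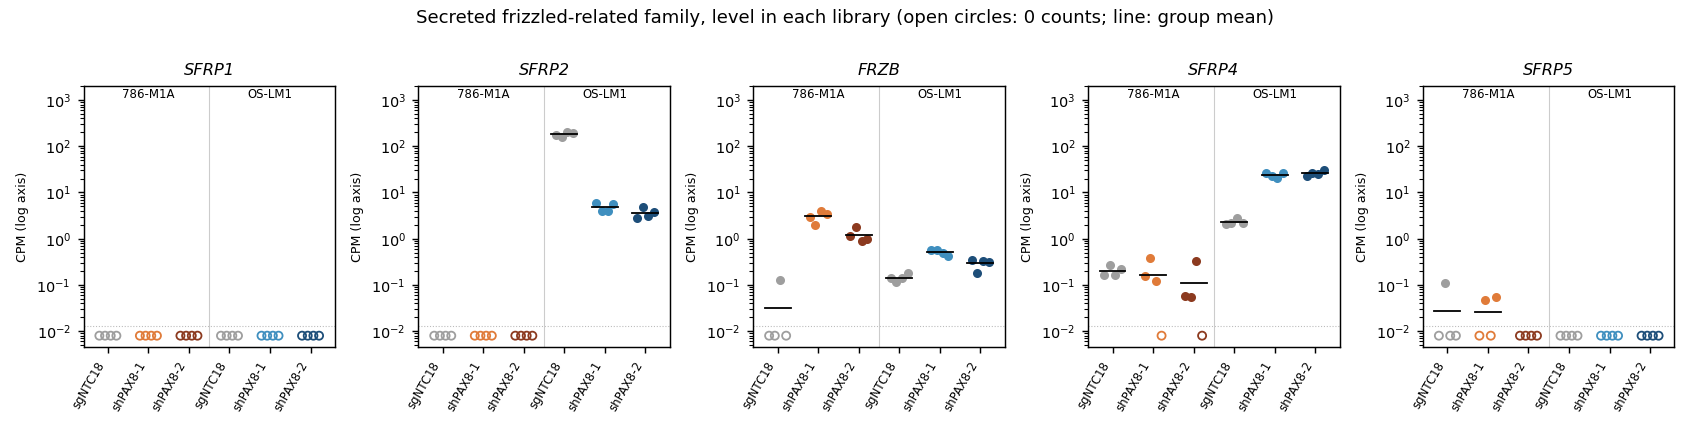
Level of the 5 secreted frizzled-related genes in each library. The vertical axis is CPM on a log scale, points are libraries, open circles are libraries with 0 counts and black lines are group means. In OS-LM1 cells SFRP2 is between 157 and 204 CPM with sgNTC18 and under 6 CPM with shPAX8, while SFRP4 is between 2.06 and 2.87 CPM with sgNTC18 and over 20 CPM with shPAX8.

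The start of SFRP2 is shown because its transcript had the largest change of the 10 genes. The RefSeq window (GRCh38.p14) at chr4:153789034-153789333, on the minus strand, runs from 250 bases before the start of the gene to 50 after it, and its GC content of 60.3% and 15 CpG sites are close to the medians of 58.7% and 14 over 35116 such windows.
SFRP2 window: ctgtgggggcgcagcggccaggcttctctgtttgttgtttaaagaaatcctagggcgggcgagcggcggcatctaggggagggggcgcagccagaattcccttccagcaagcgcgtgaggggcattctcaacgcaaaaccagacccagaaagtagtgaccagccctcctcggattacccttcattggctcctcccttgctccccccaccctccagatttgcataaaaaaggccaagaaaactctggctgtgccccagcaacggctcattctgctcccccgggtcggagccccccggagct
The letters searched on both strands were CTTTGAT (TCF/LEF), GTTAAT (HNF1), ACGTG (hypoxia response), GTCACGC (the paired domain of PAX proteins) and TATAAA, which 2.62%, 6.88%, 21.4%, 2.52% and 11.5% of the windows hold. None is present in the SFRP2 window, nor in that of LGR4. Of the 2 windows of WNT5A, the one at chr3:55481349-55481648 on the minus strand held GTTAAT, in capitals below, at position -156 from the start, and the other held none of the 5. DKK1 held TATAAA at position -30.
WNT5A window: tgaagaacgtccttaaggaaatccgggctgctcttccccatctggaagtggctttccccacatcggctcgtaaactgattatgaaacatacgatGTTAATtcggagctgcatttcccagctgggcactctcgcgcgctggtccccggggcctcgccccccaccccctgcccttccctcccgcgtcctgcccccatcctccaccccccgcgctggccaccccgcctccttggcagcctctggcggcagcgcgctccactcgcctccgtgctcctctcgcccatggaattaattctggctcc
Windows of the other 6 genes were not used here. A match says only that the letters are there.

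DKK3 (chromosome 11, 11956207 to 12009769), a divergent Dickkopf protein, was by contrast found mainly in 786-M1A. It was measured at 30.8, 36.3, 39.4 and 33.8 CPM with sgNTC18, 45.4, 46.3, 46.7 and 49.8 CPM with shPAX8-1 and 56.0, 56.2, 59.5 and 66.8 CPM with shPAX8-2. The 3 groups did not overlap, and all 8 shPAX8 libraries were above sgNTC18. DKK3 was higher with shPAX8 in 786-M1A cells (1.53-fold over both hairpins, log2 difference 0.61 ± 0.09, edgeR adjusted p = 2.3e-05) and lower with shPAX8-1 than with shPAX8-2 (log2 fold change -0.34, edgeR adjusted p = 0.015). In the deposited TPM, the log2 ratio of mean DKK3 levels, shPAX8 to sgNTC18, was smaller, at 0.49. When the dependence of counts on GC was fitted and taken out per library, the value for shPAX8-1 against sgNTC18 went from 0.44 to 0.20 and was no longer called (edgeR adjusted p = 0.06), and with replicates 1 and 2 only, the difference between the hairpins was not called (edgeR adjusted p = 0.17). In OS-LM1 cells DKK3 was at 0.723 to 1.28 CPM with sgNTC18 and at 0.194 to 0.683 CPM with shPAX8, so the groups were ordered the other way. DKK3 overlaps USP47 on the opposite strand, which had 17.9 to 38.1 CPM in 786-M1A and 30.3 to 41.8 CPM in OS-LM1. The strand setting of the counting is not stated in the sources used here.

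APCDD1L (chromosome 20, 58459101 to 58515399) is related to APCDD1, a membrane-bound Wnt inhibitor. In 786-M1A cells it was at 52.1, 57.8, 59.4 and 60.2 CPM with sgNTC18, at 14, 17.6, 10.6 and 8.56 CPM with shPAX8-1 and at 32.5, 33.1, 33.7 and 33.3 CPM with shPAX8-2. In OS-LM1 cells the libraries had 17.1 to 18.4 CPM with sgNTC18, 8.79 to 13.8 CPM with shPAX8-1 and 4.72 to 7.66 CPM with shPAX8-2. Thus shPAX8 libraries were below sgNTC18 in both lines, but the lower hairpin was shPAX8-1 in 786-M1A and shPAX8-2 in OS-LM1. Over both hairpins APCDD1L was 2.75-fold lower than with sgNTC18 in 786-M1A cells (log2 difference -1.46 ± 0.14, edgeR adjusted p = 1.9e-07), and 2.11-fold lower in OS-LM1 cells, as a description, where the log2 fold change of -1.08 became -0.69 with the GC trend removed. The antisense gene APCDD1L-AS1 had 31.1 to 35.8 CPM with sgNTC18, 16.9 to 22.4 CPM with shPAX8-1 and 24 to 29.8 CPM with shPAX8-2 in 786-M1A cells, the same order of groups as APCDD1L, and its part in the counts of APCDD1L was not tested.

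The 2 ligands differed in opposite directions from sgNTC18 in 786-M1A cells. WNT5A (chromosome 3, 55465715 to 55490539), a ligand of the β-catenin-independent branch, was at 12.2, 12, 10.9 and 9.35 CPM with sgNTC18 in 786-M1A cells, at 26.1, 24.4, 40.6 and 37.5 CPM with shPAX8-1 and at 30.3, 27.9, 34.8 and 30.3 CPM with shPAX8-2. In OS-LM1 cells it was at 76.3, 72.3, 83.3 and 77.5 CPM with sgNTC18, at 625, 656, 702 and 580 CPM with shPAX8-1 and at 653, 711, 571 and 532 CPM with shPAX8-2. In both lines all shPAX8 libraries were above all sgNTC18 libraries, and the hairpins overlapped. WNT5A was 2.87-fold higher with shPAX8 in 786-M1A cells (log2 difference 1.52 ± 0.15, edgeR adjusted p = 3.5e-07) and, as a description, 8.08-fold higher in OS-LM1 cells (log2 difference 3.01 ± 0.10). The difference between the hairpins was a log2 difference of 0.06 in 786-M1A cells (± 0.16, edgeR adjusted p = 0.78) and of 0.02 in OS-LM1 cells (± 0.10, edgeR adjusted p = 0.88). Replicates 3 and 4 of shPAX8-1 in 786-M1A cells had a mean of 39 CPM and replicates 1 and 2 a mean of 25.2 CPM, and the same replicates stood apart for LGR4 (38.3 and 24.3 CPM) and for APCDD1L (9.58 and 15.8 CPM). WNT5A was the most abundant of the 10 genes in the shPAX8 libraries of OS-LM1, with median TPM of 205 and 191, and SFRP2 was in those with sgNTC18.

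WNT7B (chromosome 22, 45920366 to 45977162), a canonical ligand of kidney epithelium, was at 18.4, 26.2, 25.6 and 17.5 CPM with sgNTC18 in 786-M1A cells. It was at 5.91, 5.37, 3.73 and 4.81 CPM with shPAX8-1 and at 4.27, 3.83, 3.56 and 4.87 CPM with shPAX8-2. All shPAX8 libraries lay below all sgNTC18 libraries and the hairpins overlapped. WNT7B was 4.76-fold lower with shPAX8 (log2 difference -2.25 ± 0.15, edgeR adjusted p = 3.7e-09), with rank 370 of 14452 genes from the lowest log2 fold change. The difference between the hairpins was 0.26 in log2 (± 0.19, edgeR adjusted p = 0.27), and was 0.80 once the GC trend was taken out (edgeR adjusted p = 3.0e-04). In OS-LM1 cells WNT7B had 0.223 to 0.967 CPM in all 12 libraries, and the groups overlapped.

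LGR4 (chromosome 11, 27365961 to 27472790), a receptor for R-spondins that potentiates Wnt signals, was at 13, 9.29, 10.5 and 12.2 CPM with sgNTC18 in 786-M1A cells. With shPAX8-1 it was at 24.5, 24, 38.4 and 38.1 CPM and with shPAX8-2 at 19.2, 15.9, 21.0 and 14.7 CPM, and the 3 groups did not overlap. It was 2.11-fold higher with shPAX8 (log2 difference 1.08 ± 0.17, edgeR adjusted p = 3.2e-05) and higher with shPAX8-1 than with shPAX8-2 (log2 difference 0.82 ± 0.18, edgeR adjusted p = 0.0024). The second difference was 0.47 with replicates 1 and 2 only, and was then not called (edgeR adjusted p = 0.086). In OS-LM1 cells LGR4 was at 24.7 to 29.9 CPM with sgNTC18, 37.8 to 44.4 CPM with shPAX8-1 and 39.1 to 49.4 CPM with shPAX8-2, 1.54-fold higher over both hairpins, as a description, with a log2 fold change of 0.62 that became 0.39 with the GC trend removed.

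AXIN2 (chromosome 17, 65528563 to 65561648), a scaffold of the β-catenin destruction complex and the usual readout of canonical signalling, was low throughout. In 786-M1A cells it was at 2.46, 2.93, 2.52 and 2.33 CPM with sgNTC18, 2.03 to 2.83 CPM with shPAX8-1 and 2.80 to 3.65 CPM with shPAX8-2, from 41 to 78 counts per library, and the groups overlapped. The log2 fold change with shPAX8 was 0.12 (± 0.15, edgeR adjusted p = 0.47). In OS-LM1 cells AXIN2 was at 3.55, 3.69, 2.62 and 3.98 CPM with sgNTC18, at 0.535, 0.688, 0.361 and 0.531 CPM with shPAX8-1 and at 1.47, 1.25, 0.751 and 0.640 CPM with shPAX8-2. All 8 shPAX8 libraries lay below sgNTC18, by 4.90-fold over both hairpins as a description. Between the hairpins AXIN2 was lower with shPAX8-1, from 9 to 14 counts per library against 20 to 36 (log2 difference -0.91 ± 0.32, edgeR adjusted p = 0.041). This call was lost on leaving out any of 8 of the 12 libraries (edgeR adjusted p = 0.057 to 0.13), namely replicates 1, 2 and 4 of sgNTC18, 1, 3 and 4 of shPAX8-1 and 1 and 2 of shPAX8-2, and without the filter on low counts (edgeR adjusted p = 0.055).

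**Figure D3:**
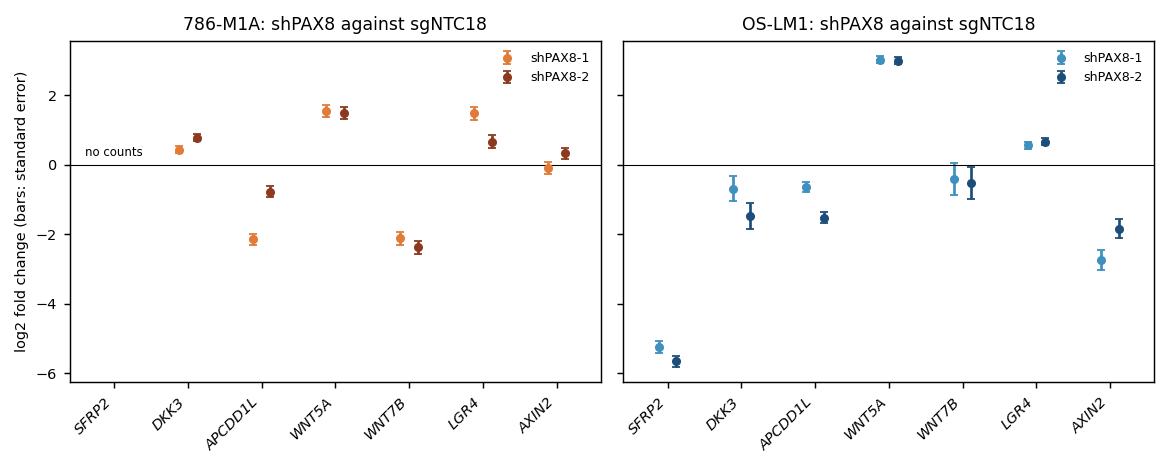
Log2 fold change of each hairpin against sgNTC18, by line. Points are edgeR estimates, bars are standard errors, and SFRP2 has no value in 786-M1A because it had no counts there. WNT5A and LGR4 are above 0 with both hairpins in both lines, APCDD1L is below 0 in both, and SFRP2 in OS-LM1 is at -5.25 and -5.66.

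Counted together, 5 of the 6 genes tested in 786-M1A cells differed between shPAX8 and sgNTC18, 3 higher (DKK3, WNT5A and LGR4) and 2 lower (WNT7B and APCDD1L). Against this stand 70.4% of all genes called in this comparison, 35.7% higher and 34.7% lower. The same 5 genes were called with shPAX8-1 alone, where 70.6% of all genes were, and with shPAX8-2 alone, where 62.5% were. For these 5, all 8 shPAX8 libraries lay on one side of the 4 sgNTC18 libraries, as they did above sgNTC18 for 22.4% and below it for 24.9% of all genes. In OS-LM1 cells the shPAX8 libraries lay above sgNTC18 for 2 of the 7 genes (WNT5A and LGR4) and below it for 4 (SFRP2, DKK3, AXIN2 and APCDD1L), against 26.3% and 25.8% of all genes. The genes tested had a median log2 fold change of 0.37 for 786-M1A and of -1.08 for OS-LM1, and all genes had one of 0.035 and -0.014. The OS-LM1 median and the count of 4 include SFRP2, whose fall in these same libraries was known when the genes were chosen. They therefore describe the chosen genes and do not show a departure from all genes.

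The comparison of the hairpins asks whether constructs with different target sites gave the same levels. In 786-M1A cells 3 of the 6 genes differed between shPAX8-1 and shPAX8-2 (DKK3, LGR4 and APCDD1L), against 47.1% of all genes. In OS-LM1 cells 2 of the 7 did (AXIN2 and APCDD1L), against 29.1%. APCDD1L was lower with shPAX8-1 in 786-M1A (-1.38 ± 0.17, edgeR adjusted p = 3.6e-05) and higher with it in OS-LM1 (0.88 ± 0.15, edgeR adjusted p = 2.0e-04). WNT5A and WNT7B were called in neither line. The difference between the hairpins was itself unlike in the 2 lines for 3 of the 6 genes with counts in both lines, as log2 values, where 27.2% of all genes were called. Taking OS-LM1 minus 786-M1A, it was 2.29 for APCDD1L (± 0.24, edgeR adjusted p = 1.5e-07), 1.15 for DKK3 (± 0.34, edgeR adjusted p = 0.012) and -0.90 for LGR4 (± 0.21, edgeR adjusted p = 0.0025). For PAX8 it was 1.16 (edgeR adjusted p = 1.5e-04), with a log2 fold change between the hairpins of -1.18 for 786-M1A and -0.05 for OS-LM1. With replicates 1 and 2 only, the difference between the lines was not called for DKK3 (edgeR adjusted p = 0.44) or LGR4 (edgeR adjusted p = 0.068). For DKK3 the OS-LM1 side rests on 3 to 18 counts per shPAX8 library. Between the hairpins in OS-LM1 cells alone DKK3 was not called (0.79 ± 0.41, edgeR adjusted p = 0.17).

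**Figure D4:**
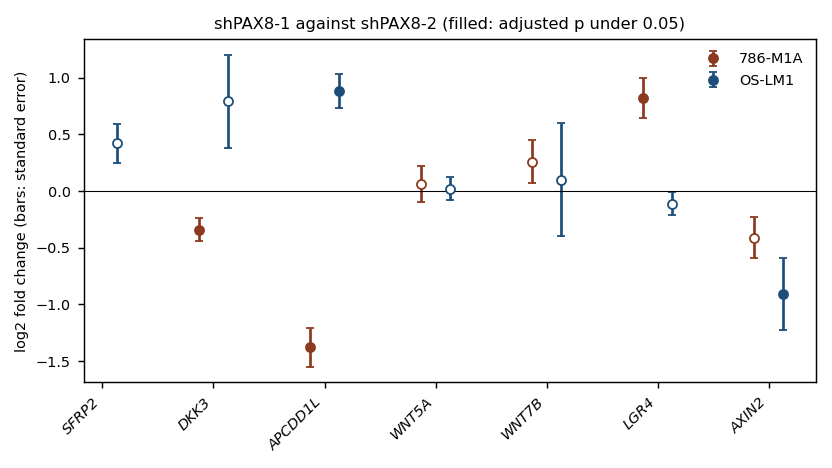
Log2 fold change of shPAX8-1 against shPAX8-2 in each line. Points are edgeR estimates, bars are standard errors and filled points have an adjusted p under 0.05. APCDD1L is at -1.38 in 786-M1A and at 0.88 in OS-LM1, and WNT5A is at 0.06 and 0.02.

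The lines themselves differed for 5 of 6 genes with sgNTC18, where 63.0% of all genes were called, and SFRP2 was not tested because it was chosen on its pattern. WNT5A was 6.95-fold higher in OS-LM1 (log2 difference 2.80 ± 0.14, edgeR adjusted p = 1.3e-15) and LGR4 2.40-fold higher (edgeR adjusted p = 5.6e-08). WNT7B was 40.1-fold lower (log2 difference -5.33 ± 0.28, edgeR adjusted p = 3.5e-15), DKK3 39.4-fold lower (edgeR adjusted p = 1.8e-19) and APCDD1L 3.21-fold lower (edgeR adjusted p = 7.5e-10). AXIN2 did not pass the threshold (log2 difference 0.44 ± 0.21, edgeR adjusted p = 0.067), but did without replicate 3 of OS-LM1 with sgNTC18 (0.55, edgeR adjusted p = 0.03). For WNT5A the ranges of OS-LM1 with shPAX8, OS-LM1 with sgNTC18, 786-M1A with shPAX8 and 786-M1A with sgNTC18 followed each other without overlap. For DKK3 and WNT7B every 786-M1A group was above every OS-LM1 group. For LGR4 the neighbouring groups overlapped from OS-LM1 with shPAX8-2 down to OS-LM1 with sgNTC18.

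A further 101 genes of the Wnt pathway were taken from lists of ligands, receptors, R-spondins, secretion factors, inhibitors, intracellular and nuclear components, feedback targets and planar polarity genes. Of the 62 that could be tested in 786-M1A cells, 25 were higher with shPAX8, 15 were lower and 22 were not called, with a median log2 fold change of 0.21, against 35.7% higher and 34.7% lower among all genes. These counts include FRZB, WNT2B and WNT10A, which passed the filter on low counts only through the shPAX8 libraries, so their calls are not tests. The counts per list below are to be read against the same shares. Among the 4 other extracellular inhibitors with enough counts, TPBG (log2 fold change 1.54, edgeR adjusted p = 1.3e-09) and KREMEN1 (0.58, edgeR adjusted p = 8.5e-04) were higher and 0 were lower. FRZB, given above, is described by its counts only. KREMEN1 had means of 29.1, 30.2 and 61.0 CPM with sgNTC18, shPAX8-1 and shPAX8-2. Among the receptors 5 of 13 were higher and 3 lower, led by the co-receptors LRP5 (log2 fold change 2.15, edgeR adjusted p = 1.0e-08) and LRP6 (1.28, edgeR adjusted p = 9.5e-08) and by FZD2 (1.62, edgeR adjusted p = 2.6e-07). Of 17 intracellular components, 8 were higher and 3 lower, with BTRC, TNKS and TNKS2, all of which act on the turnover of AXIN or β-catenin, at log2 fold changes of 1.26, 1.14 and 1.04. Of the 9 nuclear factors, 3 were higher and 2 lower, led by TCF7L2 (1.61, edgeR adjusted p = 1.5e-08) and TCF7 (-1.47, edgeR adjusted p = 6.1e-10). Of the 5 feedback and target genes, 2 were higher and 2 lower, with BAMBI at 1.34, SP5 at -1.71 and TNFRSF19 at -1.51. The planar polarity genes, which act in the branch that WNT5A can signal through, had 2 higher and 5 lower of 9, with PRICKLE1 at -1.56 (edgeR adjusted p = 5.4e-09), VANGL1 at -1.16 and CELSR3 at 1.47. Of the remaining ligands, WNT2B and WNT10A were low with sgNTC18. Both passed the filter on low counts only with the shPAX8 libraries, so their levels are given without a test. WNT2B was at 0.263 to 0.575 CPM with sgNTC18, 1.69 to 2.46 CPM with shPAX8-1 and 1.49 to 2.16 CPM with shPAX8-2. WNT10A was at 0.453 to 0.774 CPM, 1.20 to 1.74 CPM and 0.580 to 1.13 CPM. In OS-LM1 cells the shPAX8 libraries lay apart from sgNTC18 for 39 of the 65 genes tested, 26 above and 13 below, against 26.3% and 25.8% of all genes. As a description, TCF7, TNFRSF19 and FZD2 went the other way there than in 786-M1A cells. Their means with sgNTC18, shPAX8-1 and shPAX8-2 were 51.1, 134 and 92.5 CPM, 133, 193 and 359 CPM, and 16.7, 13.3 and 11.5 CPM. Others went the same way, such as TCF7L2 (means of 19.2, 54.6 and 31.4 CPM) and BTRC (29.2, 57.0 and 49.6 CPM).

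Between the hairpins, 24 of these 62 genes differed in 786-M1A cells, 13 higher and 11 lower with shPAX8-1, and 25 of 65 in OS-LM1 cells, 9 higher and 16 lower, against 47.1% and 29.1% of all genes. In OS-LM1 cells CD44 was higher with shPAX8-1 (log2 fold change 1.30, edgeR adjusted p = 4.3e-09) and TNFRSF19 lower (-0.93, edgeR adjusted p = 7.6e-08), and WNT10B, WNT10A and WNT2B were all lower (-1.49, -1.05 and -0.59). In 786-M1A cells none of the 3 other ligands tested differed. FRZB (1.33), KREMEN1 (-1.01), GSK3B (1.0), APC2 (-1.0) and ROR2 (-0.97) differed there. PORCN, the acyltransferase that ligands need for secretion, was lower with shPAX8-1 in 786-M1A cells (-0.93, edgeR adjusted p = 8.0e-04). In OS-LM1 cells PORCN was higher with shPAX8-1 (0.37, edgeR adjusted p = 0.046), and the difference between lines was 1.33 (edgeR adjusted p = 1.7e-04). Between the lines with sgNTC18, 23 of 71 genes were higher in OS-LM1 and 25 lower, against 63.0% of all genes called in either direction. These counts include genes that were detected mainly in 1 line and passed the filter on low counts only through it, so their calls are not tests. For 3 of them, WLS, WNT3 and SP5, the levels are given without a test. WLS, the carrier of Wnt ligands to the cell surface, had 3.74 to 4.67 CPM in OS-LM1 and 0.0553 to 0.307 CPM in 786-M1A. WNT3, a canonical ligand, had 10.5 to 14.3 CPM in OS-LM1 and 0.0411 to 0.129 CPM in 786-M1A. SP5, a feedback target, had 0.146 to 0.310 CPM in OS-LM1 and 2.34 to 4.31 CPM in 786-M1A.

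The genes whose log2 CPM followed a member most closely over the 24 libraries were also listed, as a description, since the libraries share 2 lines and 3 constructs. For SFRP2 they were FGA and FGG, which encode chains of fibrinogen, with Pearson's r of 0.990 and 0.988, and SLCO1B7 (0.983). FGG had a mean of 29.4 CPM in OS-LM1 with sgNTC18, 2.04 CPM with shPAX8-1 and 3.75 CPM with shPAX8-2, and at most 0.0207 CPM in the groups of 786-M1A. For WNT5A they were HIF1A (0.993), which encodes the hypoxia-inducible factor HIF1A, DPP4 (0.993) and DCBLD1 (0.992). HIF1A had means of 8.47, 18.6 and 15.6 CPM in 786-M1A with sgNTC18, shPAX8-1 and shPAX8-2, and of 35.8, 165 and 132 CPM in OS-LM1, the order of groups that WNT5A had. For WNT7B they were FAM83F (0.980), DSCAML1 (0.978) and NDN (0.978), which had mean levels of 0.0217 CPM or less in every OS-LM1 group.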

How the data were processed

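RNA from 24 samples labelled by line, construct and replicate was sequenced by the study. Per the labels and the study's methods, the authors aligned reads with Bowtie2 and counted them with RSEM on hg38, with versions not given in the sources used here, and deposited expected counts and TPM per gene. The labels and the methods name different library kits. Expected counts were rounded to whole numbers, low genes were dropped by filterByExpr within each line (14452 genes remained in 786-M1A and 15049 in OS-LM1) or over all libraries (15665), and groups were compared with edgeR 4.0.16 in R 4.3.3 (TMM, robust quasi-likelihood test) with Benjamini-Hochberg adjustment over all genes tested and a threshold of 0.05. CPM were computed with TMM library sizes. Standard errors are on the log2 scale. The fit was tested on simulated data with known fold changes.

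The members and gene lists were chosen with earlier results of these data known. All 10 genes and PAX8 were named, with at most 3 genes per other Wnt list and comparison, those of largest absolute log2 fold change among genes called, and at most 3 per member by Pearson correlation. The secreted frizzled-related family was shown whole, outside that rule. Alternatives were DESeq2 1.42.0, no filter, removal of the GC trend, a replicate block, a stricter threshold, replicates 1 and 2 or 3 and 4 only, TPM and leaving out each library. No replicate pair was alike within sampling noise. Hairpin sequences came from the study's oligonucleotide table, gene models from GENCODE and promoter windows from RefSeq (GRCh38.p14).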

Additional observations from a re-analysis of the deposited data

Results flagged for a closer look

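DKK3 in OS-LM1 cells held 1 library far from the others of its group in 2 groups. Replicate 3 with sgNTC18 was the highest, at 1.28 CPM, and replicate 1 with shPAX8-1 was the lowest, at 0.194 CPM. Such a gap was looked for in 39 groups, of which chance flags about 1 in 20, or 1.9.

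The difference between shPAX8-1 and shPAX8-2 differed between the lines for 3 genes. As OS-LM1 minus 786-M1A in log2 units, it was 2.29 for APCDD1L, 1.15 for DKK3 and -0.90 for LGR4. These are values of the interaction contrast in edgeR over all 24 libraries. The DKK3 value rests on 3 to 18 counts per shPAX8 library in OS-LM1.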

How the results depend on the processing

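Of 357 values of the 10 genes recomputed without leaving out single libraries, 325 kept both sign and call, or moved by less than the replicate spread where no test was made, 8 lost a call, 2 gained one, 15 changed sign and 7 moved further. The cause was not tested. Genes called between the hairpins went from 6803 to 4329 in 786-M1A and from 4378 to 2703 in OS-LM1 at an adjusted p under 0.01, and to 3418 and 1401 with replicates 1 and 2 only; for the difference between lines they went from 4264 to 2449 and 1698. Of the 10 genes, calls between the hairpins went from 3 to 1 in 786-M1A with replicates 1 and 2 only, and from 3 to 1 for the difference between lines. In OS-LM1 they went from 2 to 1 without the filter, with replicates 1 and 2 or 3 and 4 only and at an adjusted p under 0.01, and lay between 1 and 3 on leaving out single libraries. Sign changes were confined to values that were not called or not tested. AXIN2 in 786-M1A became -0.02 with shPAX8 (replicates 1 and 2 only), and 0.14 (GC trend removed) and 0.06 (replicates 3 and 4 only) with shPAX8-1. Between the hairpins WNT5A became -0.21 (GC trend removed) and -0.20 (replicates 1 and 2) in 786-M1A, -0.03 and -0.10 in OS-LM1, and 0.16 and 0.12 for the difference between lines. On leaving out single libraries these ran from -0.07 to 0.17, from -0.02 to 0.10 and from -0.12 to 0.13. With replicates 3 and 4 only, WNT7B became -0.02 between the hairpins in 786-M1A, -0.42 in OS-LM1 and 0.27 for shPAX8 against sgNTC18 in OS-LM1, and LGR4 became 0.06 between the hairpins in OS-LM1. WNT7B also became 0.24 for the difference between lines with replicates 1 and 2 only, and ran from -0.25 to 0.37 between the hairpins in OS-LM1 and from -0.54 to 0.09 between lines on leaving out single libraries.

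Replicate numbers gave no clear sign of pairing: deviations of same-numbered libraries correlated at 0.047 on average in 786-M1A and -0.041 in OS-LM1. Libraries with other numbers correlated at -0.016 and 0.014 on average. In 786-M1A 5 of 12 same-numbered pairs were over 0.1, against 7 of 36 other pairs, so a weak pairing there stays possible. With the replicate block, 6998 genes were called between the hairpins in 786-M1A and 3642 in OS-LM1, no count for the 10 genes changed, and WNT7B became -0.04 between the hairpins in OS-LM1. AXIN2, DKK3 and WNT7B in OS-LM1 rest on few counts, which limits their precision.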
